A study of Mus musculus with 6 samples.

Results

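Peptide hormones of the gut epithelium were followed in bulk RNA-seq of mouse intestine. The 10 genes, taken by name from the deposited table of 32219 genes, were Gip, Cck, Sct, Ghrl, Gcg, Pyy, Nts, Insl5, Sst and Chga. All 10 were present and were above 0 in each of the 5 libraries that hold values genome-wide. There were 3 libraries labelled wild type (WT 1 to WT 3) and 3 labelled knockout (KO 1 to KO 3), made from polyadenylated RNA that was extracted with TRIzol and prepared with a stranded kit for very small RNA inputs. The labels give the cells as epithelium, immune cells and enteric neurons together. The series title concerns GPR41, the short-chain fatty acid receptor encoded by Ffar3, and the helicase DHX9 in enteric neurons. Which gene was knocked out, in which cells, the strain, age and sex of the mice and whether libraries came from separate animals are not stated in the labels. The p-values therefore reflect only how far these libraries spread, and that spread could be technical. Values are deposited logs, taken here as log2(abundance + 1) in a unit that is not given, so libraries are compared within a gene and genes are not ranked against each other.

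Enteroendocrine cells are scattered single cells of the gut lining that release peptides from dense-core vesicles when nutrients reach them. Their hormone set changes along the gut: Gip, Cck and Sct are typical of the upper small intestine, Ghrl chiefly of the stomach, Gcg, Pyy and Nts of the lower small intestine, with Gcg, Pyy and Insl5 in the colon. The hormones are made as precursors that convertases cut, and they act on G protein-coupled receptors in the pancreas, gallbladder, nerves and brain. In bulk tissue, fewer cells of a type and less RNA per cell cannot be told apart.

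The libraries differ in what they cover. The 5 libraries other than KO 1 listed from 22061 to 22768 genes above 0 and KO 1 listed 9729, with values only on chromosomes 1 and 10 to 18 and the first part of 19. Where KO 1 has values they were higher by a factor of 2.12, so its linear values were divided by that factor and are called rescaled. KO 1 has values for 5 of the hormone genes (Gip, Pyy, Nts, Sst and Chga) and none for Cck, Sct, Gcg, Ghrl and Insl5, whose listed zeros are treated as missing. Tissue markers also set KO 1 apart. The design text names the duodenum, yet Fabp6, which binds bile acids in ileal enterocytes, read 8.16 to 8.76 in the other 5 libraries and 3.91 in KO 1, and Gata4, a factor of the proximal small intestine picked out after its values were seen, read 0.43 to 0.63 and 5.19. The stomach markers Gkn1, Gkn2, Tff1 and Chia1 and the islet markers Ins2, G6pc2 and Slc30a8 were at 0 in the 5 libraries, while summed abundance of the stomach list was 1.09 to 1.90 and of the islet list 0.47 to 1.01. Of the 11 acinar pancreas markers Cpa1 and Prss2 were at 0, whereas Clps, which encodes colipase, was at 4.25 to 4.88.

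The hormone genes sit on separate chromosomes except for Gip and Pyy, both on chromosome 11 (mm10, per the labels; positions from GENCODE vM21). Gip spans 96024545 to 96030831 on the plus strand, and Pyy spans 102106676 to 102107832 on the minus strand. Chga lies on chromosome 12 (102554969 to 102565028, plus strand). All 10 are protein-coding. The exons of Ghrl overlap those of Gm26982 and Gm44033 on the opposite strand, so its value could hold reads of either; the exons of the other 9 overlap no annotated gene. Shown here are the 250 bases before the RefSeq start site (GRCm38.p6) of the 3 genes for which KO 1 left the range of the other libraries. The Gip window is chr11:96024295-96024544 on the plus strand, the Pyy window is chr11:102107833-102108082 on the minus strand (1 of 2 starts in the table) and the Chga window is chr12:102554691-102554940 on the plus strand. Each reads 5′ to 3′, with capitals for a match on either strand to AGATAA, a core bound by GATA factors, to TATAAA, the TATA box, or to TGACGT, the core of the cyclic AMP response element.
Gip: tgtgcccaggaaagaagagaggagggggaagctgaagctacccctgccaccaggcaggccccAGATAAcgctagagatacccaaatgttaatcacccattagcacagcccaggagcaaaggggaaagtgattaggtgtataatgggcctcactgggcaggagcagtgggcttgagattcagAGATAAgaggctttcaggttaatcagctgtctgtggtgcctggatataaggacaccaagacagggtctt
Pyy: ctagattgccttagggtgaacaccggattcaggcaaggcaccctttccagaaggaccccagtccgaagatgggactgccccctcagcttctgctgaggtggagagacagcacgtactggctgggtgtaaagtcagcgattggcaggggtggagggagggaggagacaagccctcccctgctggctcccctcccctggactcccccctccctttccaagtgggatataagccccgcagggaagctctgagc
Chga: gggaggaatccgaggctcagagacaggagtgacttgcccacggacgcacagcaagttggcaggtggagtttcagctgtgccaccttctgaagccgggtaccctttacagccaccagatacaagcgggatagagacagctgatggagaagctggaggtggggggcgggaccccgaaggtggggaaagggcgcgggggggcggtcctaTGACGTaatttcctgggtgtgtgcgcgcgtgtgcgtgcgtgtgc
The Gip window held 2 copies of AGATAA, from 188 to 183 and from 69 to 64 bases before the start, and Chga held 1 TGACGT from 44 to 39 bases before it. The Pyy window had no match. Among 32851 mouse windows of the same length, 9.99% held AGATAA at least once and 0.938% held it 2 or more times, 12.4% held TATAAA and 6.47% held TGACGT. Windows of the other hormone genes held AGATAA once in Cck and Nts and 3 times in Insl5, TATAAA once in Sct and Insl5 and 2 times in Gcg, and TGACGT on both strands of 1 palindrome in Sst. Ghrl had none. These letter matches describe the windows and are not evidence of binding.

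Hormones typical of the upper gut came first. Gip, the glucose-dependent insulinotropic peptide of K cells, read 0.27, 0.77 and 0.73 across WT 1, WT 2 and WT 3, KO 2 read 1.14, KO 3 read 1.22, and KO 1 read 5.05 as listed or 4.02 rescaled. Both complete KO libraries were above every WT library, with a gap of 0.38 between the groups. Cck, cholecystokinin of I cells, which empties the gallbladder, read 2.39, 2.77 and 2.77 across WT, with KO 2 at 2.66 and KO 3 at 2.88. KO 2 lay inside the WT range and KO 3 just above it. Sct, secretin, which drives bicarbonate release from the pancreas, read 4.54, 3.99 and 4.63 across WT, with KO 2 at 4.34 and KO 3 at 4.64. WT 2 was the lowest library and KO 3 the highest, level with WT 3. Ghrl, the appetite hormone ghrelin, read 1.91, 2.27 and 1.80 across WT, with KO 2 at 2.14 and KO 3 at 1.98. Both KO libraries lay inside the WT range.

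Hormones of the lower gut followed. Gcg, which encodes the glucagon-like peptides of L cells, read 5.57, 5.59 and 5.37 across WT, with KO 2 at 5.85 and KO 3 at 5.16. The KO libraries were the highest and the lowest of the 5, so the genotype means hardly differ (5.51 and 5.51) while the KO pair spreads more (SD 0.49, n = 2) than WT (SD 0.12, n = 3). Pyy, peptide YY, the L cell peptide that slows gut transit, read 4.63, 4.27 and 4.63 across WT, with KO 2 at 4.23, KO 3 at 4.64, and KO 1 at 4.59 as listed or 3.57 rescaled. WT 2 and KO 2 were low together, and KO 1 was lower than both after rescaling. Nts, neurotensin of N cells, read 4.31, 3.92 and 4.34 across WT, with KO 2 at 4.09, KO 3 at 4.52, and KO 1 at 5.47 as listed or 4.42 rescaled. Here too WT 2 and KO 2 were lowest, while KO 1 fell inside the range of the others. Insl5, an insulin-like peptide of distal L cells, was low, at 0.90, 0.43 and 0.90 across WT, with KO 2 at 0.84 and KO 3 at 0.51, and its groups overlapped.

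Sst and Chga are less tied to one gut segment. Sst, somatostatin of D cells, which inhibits other endocrine cells and is also made by enteric neurons, read 3.95, 4.16 and 4.03 across WT, with KO 2 at 3.76, KO 3 at 4.14, and KO 1 at 4.998 as listed or 3.96 rescaled. KO 2 was the lowest library and KO 1 lay inside the range. Chga, chromogranin A of dense-core vesicles and a general endocrine marker, read 2.42, 2.66 and 2.42 across WT, with KO 2 at 2.65, KO 3 at 2.73, and KO 1 at 4.17 as listed or 3.17 rescaled. WT 2 lay just above KO 2, so the groups overlapped by a narrow margin.

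**Figure D1:**
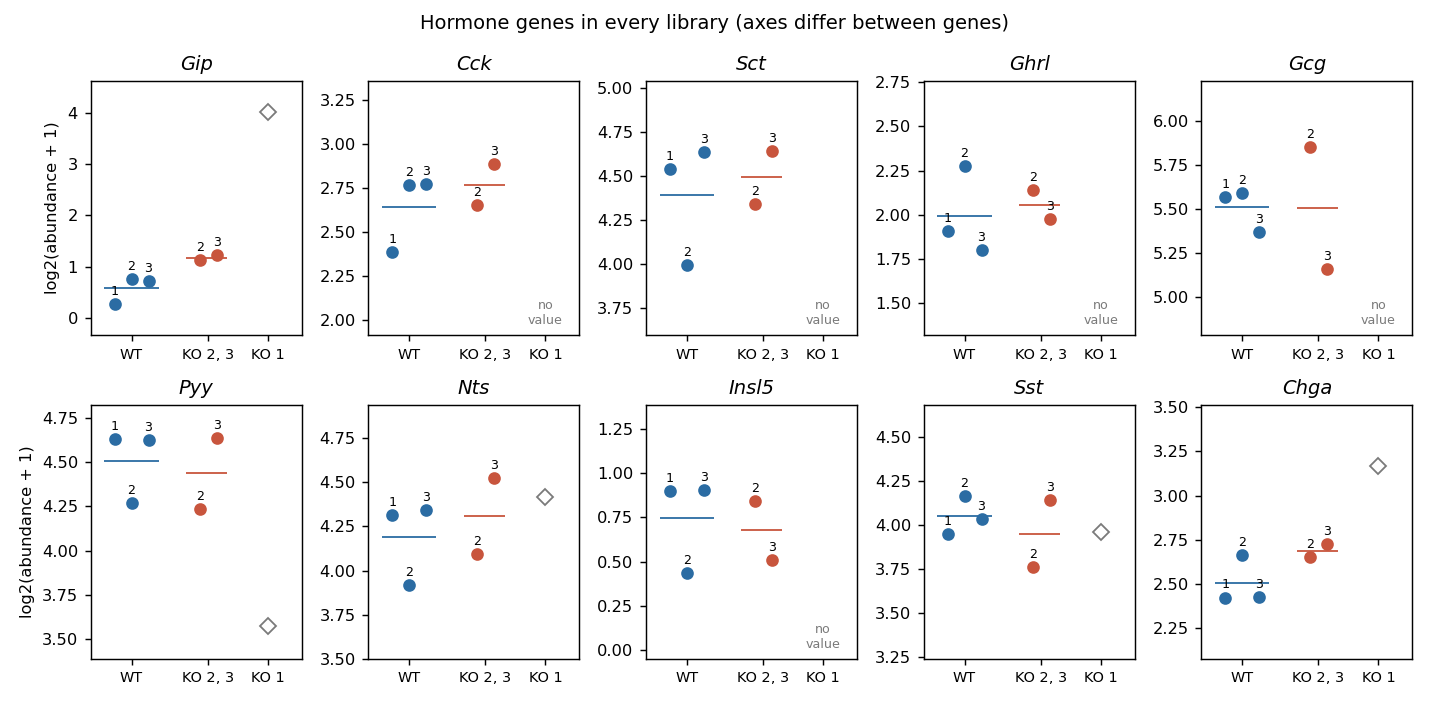
Log2(abundance + 1) of each hormone gene (vertical axes differ between genes), with WT libraries in blue, KO 2 and KO 3 in red, library numbers beside the points, group means as lines and KO 1 after rescaling as an open diamond where it holds values. Gip is the gene whose complete KO libraries (1.14 and 1.22) lie above all WT libraries (up to 0.77), and KO 1 stands at 4.02.

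KO 2 and KO 3 were compared with the 3 WT libraries by limma over 23408 genes with Benjamini-Hochberg adjustment. None of the 10 hormone genes passed an adjusted p of 0.05, each at 0.999973, where 0.00427% of all genes passed (1 gene, Gm49380), and 1 of 10 had an unadjusted p under 0.05, where 2.41% of all genes did (1.73% with KO higher and 0.688% with KO lower). That gene was Gip, with a log2 fold of 0.59 ± 0.18 (SE; 95% interval 0.16 to 1.03; limma adjusted p = 0.999973, higher in 2 of 2 KO libraries), rank 177 of 23408 by p. On the linear scale the KO to WT ratio of Gip was 2.43, from a WT mean of 0.52 to a KO mean of 1.27, both low. Groups did not overlap for 1 of the 10, Gip, against 13.3% of all genes (9.76% with KO higher), so this share is near the background.

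The other 9 hormone genes had folds from -0.10 (Sst) to 0.18 (Chga). Chga had a log2 fold of 0.18 ± 0.14 (SE), Cck 0.13 ± 0.17, Nts 0.12 ± 0.19, Sct 0.10 ± 0.22 and Ghrl 0.06 ± 0.20. Pyy stood at -0.07 ± 0.17, Insl5 at -0.07 ± 0.19, Sst at -0.10 ± 0.14 and Gcg at -0.0041 ± 0.21. Their 95% intervals reached down to -0.54 (Insl5) and up to 0.64 (Sct), so differences within those bounds remain possible. In all, 6 folds were above 0 and 4 below, with a median of 0.08 against 0.02 over all genes tested.

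With KO 1 rescaled and added to the KO group, Gip had a log2 fold of 1.54 ± 0.76 (SE; 95% interval -0.30 to 3.38; limma adjusted p = 0.999951). The fold was larger and its error larger still, since KO 1 stood 2.79 above the highest of the other 5. Chga moved to 0.34 ± 0.17 and Pyy to -0.36 ± 0.27, while Nts at 0.15 ± 0.16 and Sst at -0.10 ± 0.12 stayed close to their folds without KO 1. No hormone gene had an unadjusted p under 0.05 in that fit, where 2.2% of all genes did, and 0% passed after adjustment.

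**Figure D2:**
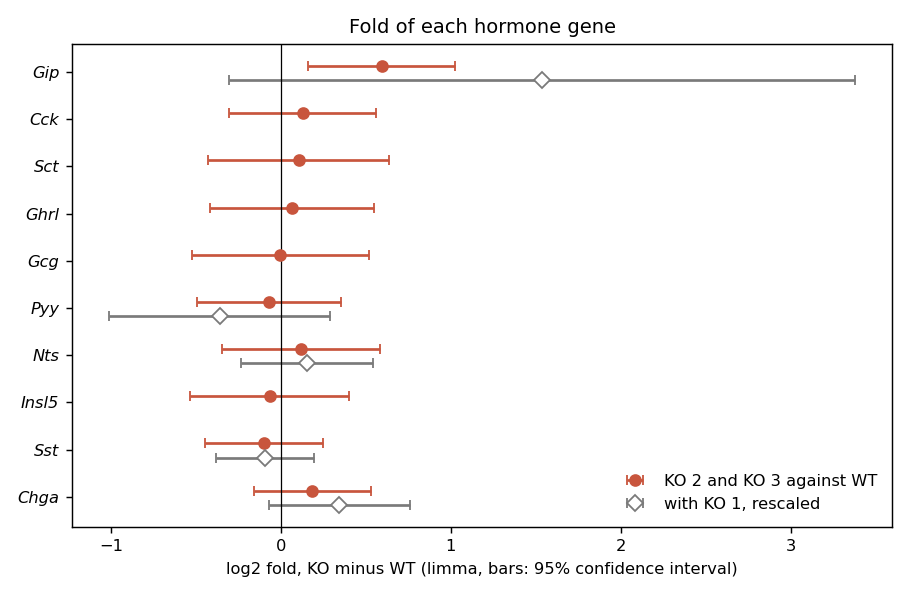
Log2 fold of KO over WT for each hormone gene, with 95% confidence intervals from limma as bars, for KO 2 and KO 3 (filled circles) and with KO 1 rescaled added (open diamonds, the 5 genes it covers). The interval of Gip lies above 0 without KO 1 (0.16 to 1.03) and spans 0 with it (-0.30 to 3.38), and all other intervals span 0.

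Among the 5 complete libraries, the hormone genes varied among libraries of both genotypes. Their range over the 5 ran from 0.30 for Chga to 0.95 for Gip, with a median of 0.49, where the median range of all genes with a mean of at least 1 was 0.36. WT 2 and KO 2, which share a replicate number, were both below the other 3 for Sct, Pyy and Nts, a pattern picked out after the values were seen and held by 7.56% of all genes. The same pair was above the other 3 for Gcg, where WT 1 was close behind WT 2, and for Ghrl, as for 17.4% of all genes. The difference between Gcg and Pyy, products that L cells can make together, was largest in KO 2 at 1.62 and WT 2 at 1.32, and smaller in WT 1 at 0.94, WT 3 at 0.74 and KO 3 at 0.52.

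Markers of epithelial and immune cells moved with this pattern, while those of smooth muscle and enteric neurons did not. WT 2 and KO 2 had the lowest summed epithelial abundance (2134 and 2288, against 2560 to 2580 in the other 3), and 11 of 12 epithelial markers were lowest in that pair. Immune markers were highest there, at a summed abundance of 191 and 226 against 78.6 to 148, with 13 of 14 highest in that pair. Summed smooth muscle abundance was 1729 in WT 2 and 1341 in KO 2, and that of neuron markers was 59.3 and 42.7. The part of these cells in the levels of Sct, Pyy, Nts, Gcg and Ghrl was not tested.

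KO 3 was the highest of the 5 libraries for 6 of the 10 hormone genes (Gip, Cck, Sct, Pyy, Nts and Chga), as it was for 26% of all genes. It was also highest for 11 of 15 granin and vesicle genes and for 12 of 16 enteric neuron markers. Summed neuron marker abundance was 70.5 in KO 3, against 48.5, 59.3 and 53.3 across WT and 42.7 for KO 2, and summed granin and vesicle abundance was 82.3 against 60.0, 72.2, 63.1 and 58.5. None of the 16 neuron markers was at 0, and the part of neurons in the granin and hormone levels of KO 3 was not tested.

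**Figure D3:**
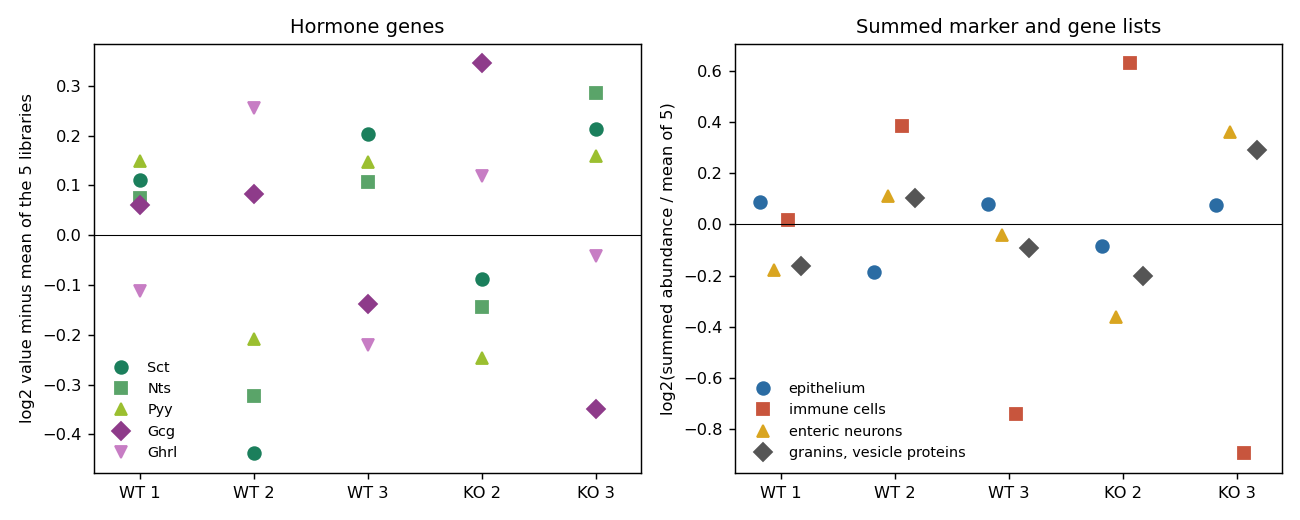
Left, log2 value minus the mean of the 5 libraries for 5 hormone genes; right, log2 of summed linear abundance over its mean for 3 marker lists and the granin and vesicle genes, with points shifted sideways for sight. Sct, Nts and Pyy are lowest and immune markers highest in WT 2 and KO 2, and in KO 3 neuron markers and granin genes are highest (70.5 and 82.3 before scaling to the mean).

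KO 1 departed from the other 5 libraries in opposite directions for different hormones. After rescaling, Gip stood 3.19 above the mean of the other 5, an 18.5-fold difference on the linear scale, and its gap of 2.79 to their range was the 9th largest upward among 10530 covered genes. Chga stood 0.59 above their mean and 0.44 above their range, a linear ratio of 1.60. Pyy stood 0.91 below their mean (log2 difference -0.91) and outside their range by -0.66, a linear ratio of 0.506. Nts, with a difference of 0.18, and Sst, with -0.05, stayed inside the range. Above the range were 2 of 5 covered hormone genes against 17.5% of all covered genes, and below it was 1 of 5 against 37.5%.

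The same values of Gip and Pyy can be written as a difference within each library, which adds no further evidence since both genes were taken for their shift in KO 1. Gip minus Pyy was -4.36, -3.51 and -3.90 across WT, with KO 2 at -3.09, KO 3 at -3.42 and KO 1 at 0.44. Of the summed linear abundance of the 5 covered hormone genes, Gip made up 0.336%, 1.26% and 1.04% across WT, 2.28% for KO 2, 1.92% for KO 3 and 22.0% for KO 1. If the deposited logs are natural logs, the factor for KO 1 is 2.89. Its rescaled values in deposited units then become 4.01 for Gip, 3.55 for Pyy, 4.41 for Nts, 3.95 for Sst and 3.13 for Chga, on the same side of the other libraries. Linear ratios and percentages given here hold for base 2, and the 18.5-fold difference of Gip would be larger with natural logs.

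Other genes of KO 1 differed beside these, where 17.5% of all covered genes were above the range and 37.5% below. Markers of the proximal small intestine were above the range of the other 5 for 3 of 4 covered genes (median difference 2.51). The proximal marker Slc40a1 was below the range, at 5.15 against 6.30 to 6.67. Ileal markers were below it for 6 of 6 (median -1.47). Smooth muscle markers were below for 5 of 5 (median -2.75), enteric neuron markers for 6 of 6 (median -1.22), and epithelial markers were above for 5 of 8 (median 0.21). Genes of granins and vesicle proteins, many of which neurons also express, were below the range for 8 of 8 (median -1.25), and the neuropeptide gene Gal was listed at 0 against 3.21 to 3.84. The part of gut segment and of muscle and nerve layers in the Gip, Pyy and Chga values of KO 1 was not tested. With 1 such library these cannot be told apart from each other or from other traits of that library. The KO label itself is shared by KO 2 and KO 3, which read 1.14 and 1.22 for Gip.

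Among covered endocrine transcription factors, 4 of 10 were above the range in KO 1 and 3 below, against 17.5% and 37.5% of all covered genes. The 4, named after their values were seen, were Rfx6, a factor needed for Gip-producing cells, at 1.28 against 0.52 to 0.83, Neurog3, which starts the endocrine fate, at 0.84 against 0.51 to 0.76, Isl1 at 0.99 against 0.57 to 0.94 and Lmx1a, a factor of serotonin-producing endocrine cells, at 0.51 against 0.26 to 0.42. All 4 are low in every library, and their gaps to the range were 0.46 for Rfx6 and under 0.1 for the others. The 3 below, named in the same way, had gaps of -1.45, -0.77 and -0.47: Etv1 read 1.24 against 2.69 to 3.13, Sox4 read 2.85 against 3.63 to 3.93 and Foxa1 read 3.72 against 4.18 to 4.43. Of 6 covered nutrient and bile acid sensors, 1 was above the range in KO 1, 4 were below and 1 was inside it (median difference -0.19). Of all covered genes, 17.5% were above and 37.5% below. The 1 above was Slc15a1, the peptide transporter through which L cells can sense dipeptides, at 7.65 against 5.27 to 6.16. Below were Gpbar1, a bile acid receptor, at 0.28 against 1.07 to 1.77, Nr1h4 at 4.85 against 5.62 to 5.93, Gprc5c at 0.69 against 0.91 to 1.17 and Casr, the calcium-sensing receptor, at 0.029 against 0.071 to 0.11.

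**Figure D4:**
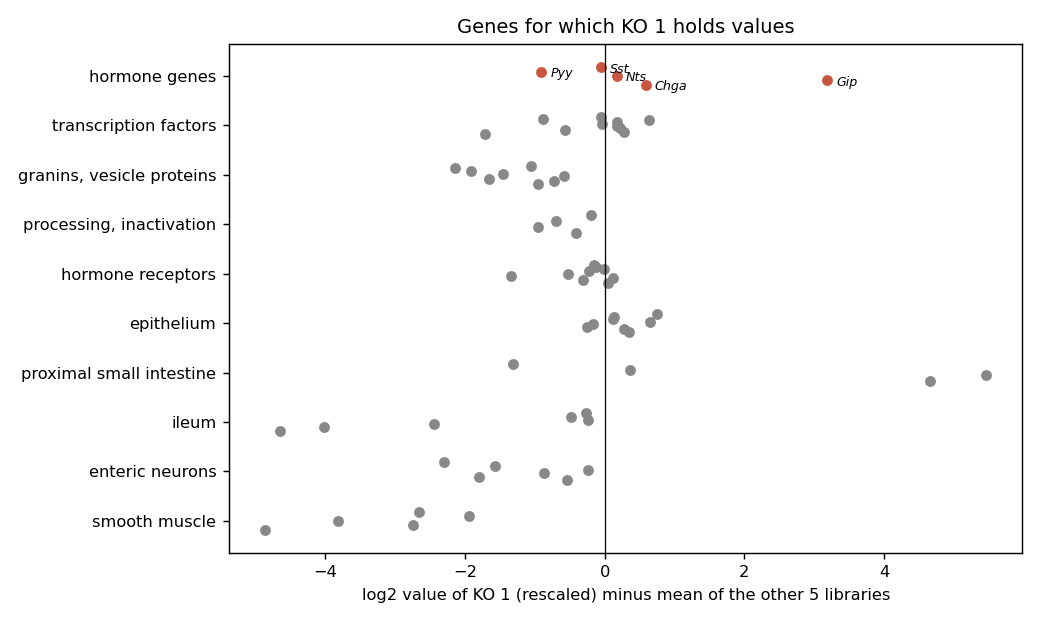
Log2 value of KO 1 after rescaling minus the mean of the other 5 libraries, 1 point per covered gene, in rows by gene list (hormone genes in red). Gip lies at 3.19 and Pyy at -0.91, proximal small intestine genes have a median of 2.51, and smooth muscle, ileal, neuron and granin genes lie below 0.

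The machinery around the hormones was compared between KO 2 and KO 3 and WT in the same limma fit. In 6 lists of such genes, 0 passed after adjustment, where 0.00427% of all genes did. None had an unadjusted p under 0.05, where 2.41% of all genes did. The genes named for groups that do not overlap were picked after their values were seen. The share of all genes with such groups is 13.3% (9.76% with KO higher and 3.55% with KO lower). The share of all genes with a fold above 0 was not computed, so counts of folds by sign in these lists have no background. The median fold of all genes tested was 0.02. Of 15 granin and vesicle genes, 12 had folds above 0 and 3 below (median 0.06). Groups did not overlap for 2: Chgb, chromogranin B, at 0.25 ± 0.15 (SE), and Slc18a1, a vesicular monoamine transporter, at 0.31 ± 0.14. Of 25 endocrine transcription factors, 21 had folds above 0 and 4 below (median 0.09). Groups did not overlap for 4 of the 25 (16%), each with KO higher. Among the 4 were Insm1, a factor of endocrine differentiation, at 0.27 ± 0.12 (SE), Rfx3 at 0.19 ± 0.15 and Lmx1a at 0.09 ± 0.06. Insm1 read 0.92, 0.95 and 0.96 across WT, with KO 2 at 1.15 and KO 3 at 1.28.

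Of 12 genes for prohormone processing and peptide inactivation, 10 had folds above 0 and 2 below (median 0.07). Mme, neprilysin, a peptidase that degrades gut peptides, read 2.40, 2.90 and 2.67 across WT, with KO 2 at 2.94 and KO 3 at 3.41 (log2 fold 0.52 ± 0.21 SE). It and Lnpep, an aminopeptidase, at 0.12 ± 0.07, had groups that did not overlap. Dpp4, which inactivates incretins, stood at 0.13 ± 0.16, and Pcsk1, the convertase of intestinal endocrine cells, at 0.06 ± 0.17.

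Of 20 nutrient and bile acid sensors tested, 11 had folds above 0 and 9 below (median 0.01). Lpar5, a lysophosphatidic acid receptor, had groups that did not overlap, with a fold of 0.05 ± 0.08 (SE). Ffar1, a receptor for long-chain fatty acids, stood at 0.16 ± 0.22, Slc5a1, the sodium glucose transporter behind glucose-driven incretin release, at 0.14 ± 0.18, and Nr1h4, the bile acid receptor FXR, at -0.02 ± 0.12. Ffar3 of the series title read 0.60, 0.18 and 0.46 across WT, with KO 2 at 0.35 and KO 3 at 0.59. Gpr142 was at 0 in the 5 libraries.

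Of 19 hormone receptors tested, 5 had folds above 0 and 14 below (median -0.04). Groups did not overlap for 3 of the 19 (15.8%), against 13.3% of all genes either way, so this share is near the background. All 3 were lower in KO 2 and KO 3, where 3.55% of all genes were apart in that direction. They were Sctr, the secretin receptor, at -0.11 ± 0.09 (SE), Sstr4, a somatostatin receptor, at -0.17 ± 0.11, and Rxfp4, the receptor for INSL5, at -0.09 ± 0.07. Rxfp4 was low in the 5 libraries, at 0.087 to 0.31. Npy4r, a pancreatic polypeptide receptor, stood at -0.36 ± 0.21 and Glp1r at 0.10 ± 0.06. Of 8 other endocrine products tested, 5 had folds above 0 and 3 below (median 0.04) and none had groups apart. Tac1, the substance P precursor, stood at -0.26 ± 0.46, with WT 3 at 4.73 and the other 4 libraries at 3.24 to 3.55. Gast, the gastrin gene, was at 0 in the 5 libraries.

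Genes with patterns most like each hormone were sought among 64 genes of these lists with a mean of at least 1, by the root mean square difference of centred values over the 5 libraries. Gip and Insl5 were below that mean. Nts was closest to Slc5a1 (0.042) and then to Sct (0.081), Pyy to Nr1h4 (0.085) and Nts (0.096), Gcg to Trpm5, a channel of tuft cells (0.065), and Ghrl to Sox4 (0.078). Cck was closest to Tph1, the enzyme of serotonin synthesis in endocrine cells (0.069), Sst to Rab3c (0.069) and Chga to Cd36, a fatty acid transporter (0.048). The 5 points share their libraries, so these distances describe the libraries and carry no test.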

How the data were processed

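Per the labels, polyadenylated RNA of 6 intestine libraries was sequenced, and the genome build was mm10 per the submitters' processing notes. The authors deposited 1 table of log values, taken here as log2(abundance + 1). No source used here gives the aligner, counter, strand setting, unit, log base or added constant, so depth is unknown and no counting interval is given. A fold on this scale understates changes of genes near 0.

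Of 32245 rows, 26 had a date as symbol and were left out. GENCODE vM21 placed 31398 of 32219 symbols. KO 1 was treated as missing where a chromosome is not covered, and elsewhere it was scaled down on the linear scale by 2.12. This factor is the median, over 2160 covered genes averaging at least 4 elsewhere, of KO 1 divided by that average.

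Genes above 0 in at least 2 of the 5 complete libraries were tested (23408). The test was limma (version 3.58.1, R 4.3.3) with a trended variance and genotype alone in the model, 2-sided, at a Benjamini-Hochberg adjusted p of 0.05, and it was tested on simulated data. KO 1 was left out of the main comparison. The hormone genes, the lists and the comparisons were chosen with earlier results of these data known. Every hormone gene is named. Of each other list, up to 3 genes by smallest p and 2 by highest mean could be named, and of each marker list 3 by highest mean; the genes of the title and those found by likeness could be named too. Gm49380, Pcsk1, Slc15a1, the 3 motifs and the printed promoters were picked after values were seen, as were others where the text says so. So were Gpbar1, Gprc5c and Casr, named for their KO 1 values, and the genes named as at 0 in the 5 libraries. The values of 1 listed gene are not reported here. Alternatives were the 6 libraries as deposited, KO 1 rescaled, the replicate block, filters, added constants, natural logs, median centring, quantile normalization, other variance models and each library left out. A filter for genes above 0 in all 5 libraries, and centring on epithelial markers with that filter, were added after the data were seen; the centring was first run without the filter and repeated with it, because it shifts listed zeros.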

Additional observations from a re-analysis of the deposited data

Results flagged for a closer look

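KO 1 is outside the main comparison, and 3 of its 5 covered hormone genes stood above every WT library after rescaling. The share of all covered genes that did so was not computed, so this count has no background. Above the range of the 5 complete libraries were 2 of 5, against 17.5% of all covered genes. Gip stood at 4.02 against WT up to 0.77, and Chga at 3.17 against WT up to 2.66. Nts stood at 4.42 against WT up to 4.34, which lies inside the range of the 5 complete libraries, since KO 3 was at 4.52. All 3 come from 1 library whose gut segment markers differ from the others, and none has a replicate.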

How the results depend on the processing

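In 19 alternatives, none of the hormone genes passed by limma (adjusted p 0.727 to 1). The Gip fold stayed above 0 in the 18 that gave it (0.18 with an added constant of 5 to 1.88 as deposited), and 2 hormone genes, Gip and Chga, kept 1 sign throughout. For Gip most of these settings could not turn the sign, since KO 1, KO 2 and KO 3 all lay above every WT library. Of 188 hormone folds under alternatives, 166 had the same sign and 22 the opposite. With the 6 libraries as deposited, listed zeros and the higher scale of KO 1 turned Cck to -0.80, Sct to -1.39, Ghrl to -0.62 and Sst to 0.25. With the replicate block, Cck turned to -0.0014, Gcg to 0.025 and Insl5 to 0.0087; number 1 then has 1 library, so the estimates equal those without WT 1. Deviations of same-numbered libraries correlated at 0.23, 0.47 and 0.07 for numbers 1, 2 and 3. WT 1 and WT 2 each correlated best with the KO library of their own number and WT 3 with KO 1 (0.20). KO deviations were taken from a mean that includes KO 1, whose tissue markers differ. These correlations therefore cannot decide whether the numbers are pairs. The numbers were not taken as pairs in the main fit, although WT 2 and KO 2 deviated together. Leaving out each library gave Gip 0.43 to 0.68, Cck -0.0014 to 0.24, Sct -0.09 to 0.25, Gcg -0.35 to 0.34, Pyy -0.28 to 0.13, Nts -0.10 to 0.33, Sst -0.29 to 0.09, Ghrl -0.03 to 0.20, Insl5 -0.23 to 0.10 and Chga 0.14 to 0.26. Where 1 KO library is left, the spread comes from the WT libraries and the variance trend over all genes. The sign turned without WT 1 for Cck (-0.0014), Gcg (0.025) and Insl5 (0.0087), without WT 2 for Sct (-0.0948), Gcg (0.037) and Nts (-0.020), without WT 3 for Ghrl (-0.0335) and Insl5 (0.012), without KO 2 for Pyy (0.13), Sst (0.0910) and Ghrl (-0.017), and without KO 3 for Sct (-0.047), Gcg (0.34), Nts (-0.097) and Insl5 (0.099). The 1 gene called, Gm49380, became 0 genes as deposited, with KO 1 rescaled, with the replicate block, at a mean of at least 1, with a constant of 0.1, with genes above 0 in all 5 libraries, and without any 1 library (0 to 0). Gm49380 was at 0 in WT 1 and WT 3. Both the mean filter and the filter above 0 in all 5 left it out before any test. Its KO 1 zero as deposited lies on chromosome 9, which KO 1 does not cover. No filter gave 4 genes. Centring on epithelial markers with genes above 0 in all 5 gave 47, none a hormone gene, where limma pooled the variance of all genes into 1 trend; the cause was not tested. Unknown depth limits what the low values of Gip and Insl5 can show.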
